A study of Mus musculus with 12 samples.

Results

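The EGF family ligands and the ERBB receptors they bind were followed in primary neurons of C57BL/6 mice, in a model of oncogene-induced senescence and a model of stress-induced senescence. The 10 genes were taken by symbol. They comprise 6 ligands (Areg, Ereg, Hbegf, Tgfa, Btc and Nrg1) and 4 receptors (Egfr, Erbb2, Erbb3 and Erbb4). All 10 were found in both expression tables, which list 18223 genes for the oncogene model and 17800 for the etoposide model.

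Both models were sampled on day 10. In the oncogene model, 3 libraries of neurons over-expressing H-Ras(G12V), a constitutively active mutant of the small GTPase H-Ras, were set against 3 control libraries with wild-type genotype, whose treatment label is mCherry, a fluorescent protein. An adeno-associated virus delivered H-Ras. Whether mCherry was delivered in the same way, which promoter drove the transgene and from which species it came are not given in the sources used here. In the etoposide model, 3 libraries of wild-type neurons treated with etoposide, a topoisomerase II poison that breaks DNA, were set against 3 libraries treated with its solvent DMSO. The treatment tags of the etoposide and DMSO libraries are the reverse of their titles. Groups follow the titles, the library names and the table's column names, and the directions below are those of the libraries with etoposide in the title. No label says if the 3 libraries of a group are separate cultures or animals. P-values thus measure the spread between these libraries alone, which may be technical.

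EGF family ligands are made as membrane-anchored precursors and are released by metalloproteases of the ADAM family. They bind receptor tyrosine kinases that pair with themselves or each other and signal through RAS and ERK, through PI3-kinase and through other routes. Amphiregulin (Areg) and TGF-alpha (Tgfa) bind EGFR. Epiregulin (Ereg), betacellulin (Btc) and HB-EGF (Hbegf) bind EGFR and ERBB4, and neuregulin 1 (Nrg1) binds ERBB3 and ERBB4. ERBB2 has no known ligand of its own and serves as a partner receptor, and ERBB3 has an impaired kinase. In the brain, EGFR is known from progenitors and glia, ERBB3 from the oligodendrocyte lineage and ERBB4 from inhibitory neurons. Several of the ligand genes are known targets of RAS and ERK signalling, and ligand release is a known part of the secretion of senescent cells.

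Areg, Ereg and Btc are neighbours on mouse chromosome 5, together with Epgn, the gene of the EGFR ligand epigen. In the RefSeq annotation of GRCm38.p6 the order of protein-coding genes was Epgn, Ereg, Areg, Btc, with no other protein-coding gene between them. RefSeq promoter entries were found for 6 of the 10 genes. The 250 bases before the annotated start are shown for Areg, Btc and Egfr, the genes with an entry whose transcripts were higher in both models in the libraries described below. Capitals in the Areg sequence mark a full cAMP response element (TGACGTCA) and a TATA element (TATAAA). The build of these sequences, GRCm38.p6, is not the build mm9 of the expression tables, and no other coordinates are used.
Areg, chr5:91139349-91139598, plus strand: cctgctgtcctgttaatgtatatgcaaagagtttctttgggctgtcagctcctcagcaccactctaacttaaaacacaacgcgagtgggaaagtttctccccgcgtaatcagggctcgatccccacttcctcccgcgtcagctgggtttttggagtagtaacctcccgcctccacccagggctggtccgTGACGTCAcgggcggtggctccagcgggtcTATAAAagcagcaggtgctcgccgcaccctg
Btc, chr5:91402995-91403244, minus strand: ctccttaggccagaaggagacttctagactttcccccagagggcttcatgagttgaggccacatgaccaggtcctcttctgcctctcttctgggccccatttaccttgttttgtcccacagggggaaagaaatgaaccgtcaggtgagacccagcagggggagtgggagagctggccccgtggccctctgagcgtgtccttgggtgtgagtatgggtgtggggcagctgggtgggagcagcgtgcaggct
Egfr, chr11:16751953-16752202, plus strand: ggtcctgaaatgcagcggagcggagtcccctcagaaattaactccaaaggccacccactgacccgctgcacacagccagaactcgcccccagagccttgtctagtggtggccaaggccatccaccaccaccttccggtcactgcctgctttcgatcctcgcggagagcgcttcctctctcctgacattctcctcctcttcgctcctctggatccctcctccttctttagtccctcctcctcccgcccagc

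The 3 windows had 57.2%, 59.6% and 60.8% G and C bases for Areg, Btc and Egfr, against a median of 52.4% over 32851 RefSeq promoter entries. Both strands were searched. TGACGTCA was found in the Areg window alone among Areg, Btc, Epgn, Tgfa, Egfr, Erbb2 and Erbb4, at positions -61 to -54 from the start, and in 1.55% of all entries. TATAAA was found in the Areg window at -31 to -26 and in the Epgn window at -86 to -81, and in 12.4% of all entries. An AP-1 element (TGANTCA, in 6.75% of entries) and an ETS element (CCGGAAGT, in 2.88% of entries) were found in none of these 7 windows. These are matches of letters in a short window and do not show binding.

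Expression was deposited as FPKM, fragments per length of transcript and per library total, so levels can be set side by side between genes. Between 11829 and 12728 genes reached 1 FPKM in a library, and depth, estimated roughly from the steps of low values, was 12700000 to 13500000 fragments in the oncogene model and 19800000 to 22600000 in the etoposide model. Some libraries stood apart. Etoposide library 3 correlated by rank at 0.921 and 0.946 with its own group and at 0.969 to 0.986 with the DMSO group. Library 3 of mCherry correlated by rank at 0.965 and 0.963 with libraries 1 and 2, which correlated at 0.993 between them, and at 0.963 to 0.968 with the H-Ras(G12V) group. Mouse Hras itself was at 38.41, 51.63 and 33.46 FPKM in the H-Ras(G12V) libraries and 45.94, 42.98 and 44.2 FPKM in the mCherry libraries. Because the species of the transgene is not given, this value does not check the label.

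The cultures held markers of neurons and of other cells. Summed over 8 markers, pan-neuronal mRNA was at 1245 to 1458 FPKM in H-Ras(G12V) libraries and 2092 to 2350 FPKM in mCherry libraries. It was at 774.6, 1807 and 2719 FPKM in etoposide libraries 1, 2 and 3 and at 2303 to 2386 FPKM in DMSO libraries. With H-Ras(G12V) these markers did not move together. Rbfox3, Map2 and Syt1 were lower and Nefl was higher with no overlap between the groups, and the others overlapped. In mCherry libraries 1, 2 and 3, Tubb3 was at 703.76, 737.07 and 110.13 FPKM and Snap25 at 161.48, 174.6 and 564.24 FPKM. Oligodendrocyte lineage markers summed to 853.6 to 1060 FPKM in H-Ras(G12V), 207.7 to 723.3 in mCherry, 64.82 to 208.7 in etoposide and 532.3 to 891.7 in DMSO libraries. Astrocyte markers summed to 2536 to 3680, 1171 to 3119, 609.3 to 946.1 and 1016 to 1583 FPKM in the same order of groups. Neural progenitor markers summed to 3468 to 4867, 2414 to 3020, 154.8 to 663.4 and 1693 to 2281 FPKM in that order. Of 8 oligodendrocyte lineage markers tested, 5 rose in H-Ras(G12V) libraries, where 10.3% of all tested genes rose and 6.67% fell. With etoposide 4 of 8 fell, where 0.453% of all tested genes fell. Of 8 pan-neuronal markers 1 fell in H-Ras(G12V) libraries and none passed in either direction with etoposide. Of 8 fibroblast and mural markers 7 fell in H-Ras(G12V) libraries, where they summed to 35.12 to 39.12 FPKM against 153.1 to 194.1 FPKM in mCherry libraries. With H-Ras(G12V), 3 of 8 inhibitory neuron markers fell, and 1 of 8 astrocyte and 2 of 7 progenitor markers rose. With etoposide, 2 of 7 progenitor markers fell and no inhibitory neuron, astrocyte, fibroblast or mural marker passed. Without mCherry library 3, 8 of 8 oligodendrocyte lineage and 7 of 8 astrocyte markers rose with H-Ras(G12V), where 25.4% of all genes rose. In that fit, 2 of 8 pan-neuronal markers rose and 4 fell, where 19.5% of all genes fell. Without etoposide library 3, 6 of 8 oligodendrocyte lineage and 3 of 8 pan-neuronal markers fell with etoposide, 6 of 8 astrocyte markers fell and 1 rose, and 3 of 7 progenitor markers fell and 2 rose, where 13.4% of all genes fell and 18.4% rose. Microglial markers summed to at most 21.18 FPKM in any library, and none passed. No pan-neuronal, astrocyte or progenitor marker was at 0 in any library. In bulk RNA, fewer cells of a type and less RNA per cell cannot be told apart. The part of cell composition in the results below was not tested, except where values are given beside a gene.

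In control cultures, Hbegf was the most abundant of the 10 mRNAs, and Ereg and Erbb3 were the least abundant. Hbegf averaged 13.8 ± 1.10 FPKM in mCherry and 15.0 ± 1.87 FPKM in DMSO libraries (SD, n = 3 each, as for all means below). In mCherry libraries it was followed by Tgfa at 8.51 ± 3.60, Egfr at 8.12 ± 0.807 and Erbb4 at 6.41 ± 1.52 FPKM, which lay within each other's spread. Nrg1 at 3.28 ± 0.443 and Erbb2 at 2.13 ± 0.210 FPKM came next in mCherry libraries. The DMSO libraries had the same first genes, with Tgfa at 11.2 ± 1.01 and Egfr at 8.66 ± 1.31 FPKM, while Nrg1, Erbb4 and Erbb2 lay between 1.69 and 2.69 FPKM on average. Areg, Btc, Erbb3 and Ereg averaged under 0.4 FPKM in both control groups.

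In H-Ras(G12V) neurons, 2 EGFR ligands and EGFR itself rose, among 7 members tested, where 10.3% of all tested genes rose. Areg entered the test only through its level in the H-Ras(G12V) libraries, so this count is a description. Areg, low in controls, had a mean level 20.8 times that of the mCherry libraries, Hbegf, the most abundant ligand, 3.07 times and Egfr 2.2 times. Nrg1, Erbb2 and Erbb4 did not pass the test. Ereg and Btc, the chromosome 5 neighbours of Areg, were also higher in every H-Ras(G12V) library, at low levels.

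Areg was at 7.23, 9.2 and 6.87 FPKM in H-Ras(G12V) libraries, against 0.26, 0.26 and 0.6 FPKM in mCherry libraries. The groups did not overlap, and the ratio of their means was 20.8. At the roughly estimated depth, 3 fragments would give 0.186 to 0.187 FPKM in mCherry libraries, so this ratio is rough. On the log2(FPKM + 1) scale, which understates changes of low values, Areg rose by 2.67 with a standard error of 0.172 (95% confidence interval 2.27 to 3.08, limma adjusted p = 0.00095). Areg entered the test, which was limited to genes averaging 1 FPKM or more across the 6 libraries, only through its level in the H-Ras(G12V) group.

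Hbegf was at 41.25, 52.59 and 32.86 FPKM in H-Ras(G12V) libraries, against 13.11, 13.16 and 15.04 FPKM in mCherry libraries. Each H-Ras(G12V) library lay above each mCherry library, with means of 42.2 ± 9.90 and 13.8 ± 1.10 FPKM. The ratio of means was 3.07, and the log2 fold change of 1.53 (95% confidence interval 1.10 to 1.95) passed with a limma adjusted p of 0.00436.

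Btc was at 1.09, 1.06 and 0.86 FPKM in H-Ras(G12V) libraries and 0.07, 0.05 and 0.32 FPKM in mCherry libraries. Ereg was at 0.78, 0.76 and 0.33 FPKM in H-Ras(G12V) libraries and 0.03, 0.03 and 0.05 FPKM in mCherry libraries. Neither group overlapped its control, but both genes averaged under 1 FPKM over the 6 libraries and were left out of the main test. When no filter on low values was set, Btc passed with a log2 fold change of 0.81 (limma adjusted p = 0.0101) and Ereg with 0.63 (limma adjusted p = 0.0228). Of all genes, 7.6% then passed as higher. All 3 Ereg values of the mCherry libraries lay at or under 0.0546 to 0.0551 FPKM, the level that 3 fragments would give at the roughly estimated depth, so no fold is given.

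Tgfa was at 16.52, 11.57 and 15.68 FPKM in H-Ras(G12V) libraries and 5.83, 7.1 and 12.6 FPKM in mCherry libraries. The groups overlapped through mCherry library 3. The log2 fold change of 0.76 did not pass (limma adjusted p = 0.0970). Without mCherry library 3 it was 1.05 with an adjusted p of 0.00211. In that fit 25.4% of all genes passed as higher, and it rests on the spread of mCherry libraries 1 and 2, whose rank correlation was 0.993.

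Nrg1, the ligand of ERBB3 and ERBB4, was at 3.09, 3.54 and 3.28 FPKM in H-Ras(G12V) libraries and 3.18, 3.76 and 2.89 FPKM in mCherry libraries. The groups overlapped, and the 95% confidence interval of the log2 fold change ran from -0.31 to 0.34 around 0.01 (limma adjusted p = 0.957). The sign turned to -0.10 after scaling to a common sum and to -0.04 with median-of-ratios scaling.

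**Figure D1:**
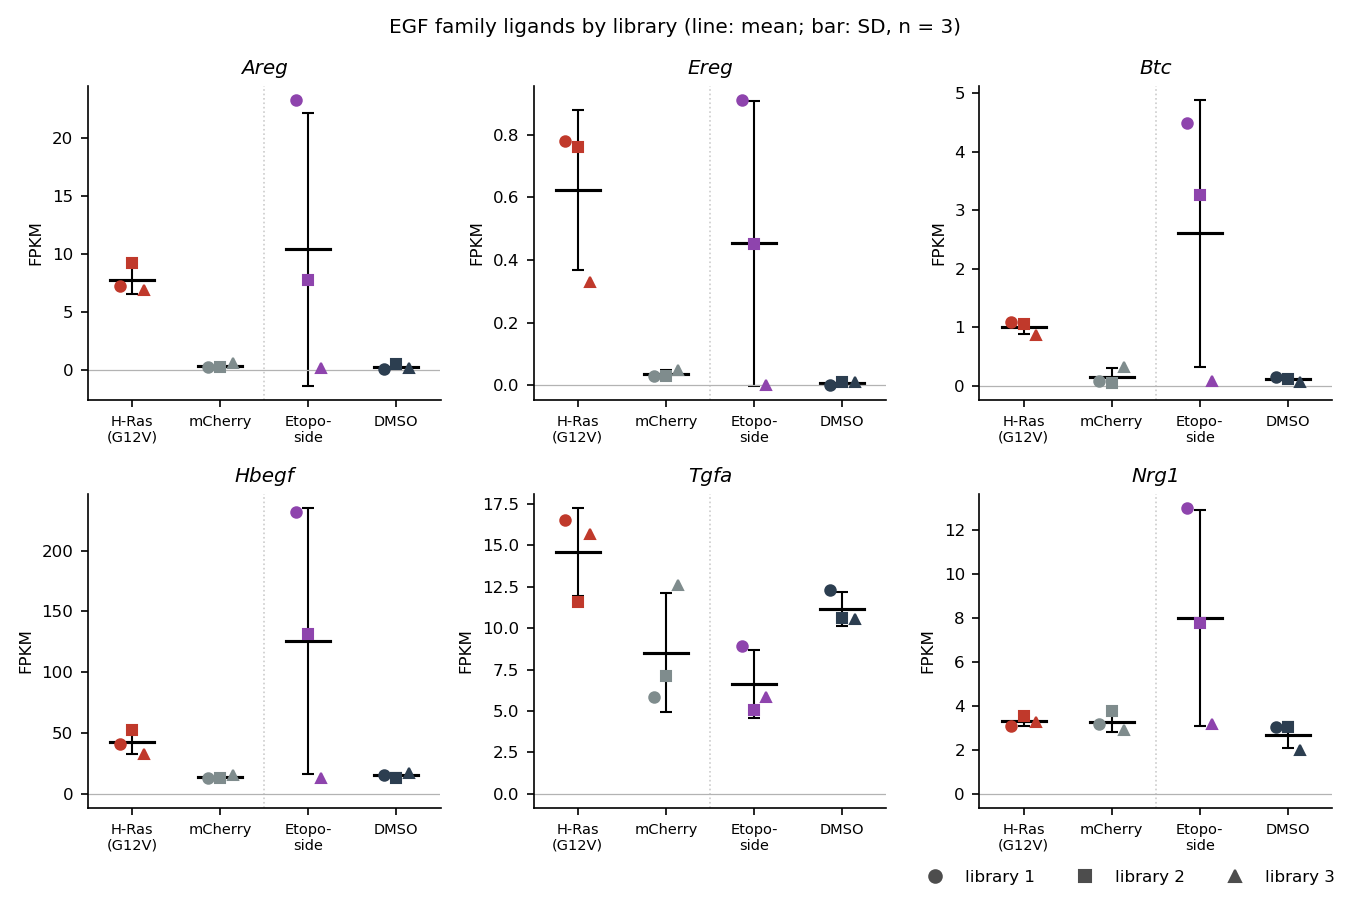
FPKM of the 6 ligands in each library of the 4 groups, with a line at the group mean and bars of 1 SD (n = 3); each panel has its own linear axis and marker shapes give the library number. Areg, Ereg, Btc and Hbegf were higher in all 3 H-Ras(G12V) libraries than in any mCherry library, and high in etoposide libraries 1 and 2 but not in library 3.

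Among the receptors, Egfr was at 16.17, 19.16 and 18.25 FPKM in H-Ras(G12V) libraries, against 8.89, 7.28 and 8.19 FPKM in mCherry libraries. The groups did not overlap, and the spread within each was small, with means of 17.9 ± 1.53 and 8.12 ± 0.807 FPKM. The ratio of means was 2.2, and the log2 fold change of 1.05 (95% confidence interval 0.748 to 1.35) passed with a limma adjusted p of 0.00479. All 8 astrocyte and 7 progenitor markers had positive log2 fold changes, but only 1 and 2 of them passed. The astrocyte marker sums overlapped, with mCherry library 3 at 3119 FPKM and H-Ras(G12V) library 3 at 2536 FPKM. The progenitor marker Nes was at 81.15, 90.22 and 100.11 FPKM in H-Ras(G12V) libraries and 28.09, 28.23 and 29.65 FPKM in mCherry libraries, and the astrocyte marker Aldh1l1 was at 138.79, 160.44 and 127.28 FPKM in H-Ras(G12V) libraries and 50.02, 49.17 and 44.93 FPKM in mCherry libraries. Both were high in the same libraries as Egfr, but Aldh1l1 was the only astrocyte marker of the list whose groups did not overlap. Gfap, another astrocyte marker, was at 2305.19, 2165.52 and 1320.03 FPKM in H-Ras(G12V) libraries and 506.93, 518.53 and 1488.46 FPKM in mCherry libraries, where library 3 lay apart for Gfap and not for Egfr. The part of these cells in the Egfr values was not tested.

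Erbb2 was at 2.54, 3.08 and 1.82 FPKM in H-Ras(G12V) libraries and 1.9, 2.18 and 2.31 FPKM in mCherry libraries, and the groups overlapped (log2 fold change 0.14, 95% confidence interval -0.27 to 0.55, limma adjusted p = 0.606). Erbb4 was at 5.75, 3.6 and 5.7 FPKM in H-Ras(G12V) libraries and 5.38, 5.69 and 8.16 FPKM in mCherry libraries (log2 fold change -0.30, 95% confidence interval -0.81 to 0.20, limma adjusted p = 0.357). Its highest value was in mCherry library 3, where 8 inhibitory neuron markers also summed to their highest, 760.3 FPKM against 295.3 and 310.2 FPKM in the other mCherry libraries.

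Erbb3 stayed at very low levels, at 0.16, 0.12 and 0.19 FPKM in H-Ras(G12V) libraries and 0.09, 0.06 and 0.08 FPKM in mCherry libraries. The groups did not overlap, but with no filter the log2 fold change of 0.10 did not pass (limma adjusted p = 0.122). These levels stood beside those of Sox10, a transcription factor of the oligodendrocyte lineage, at 47.77, 38.81 and 34.4 FPKM in H-Ras(G12V) libraries.

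**Figure D2:**
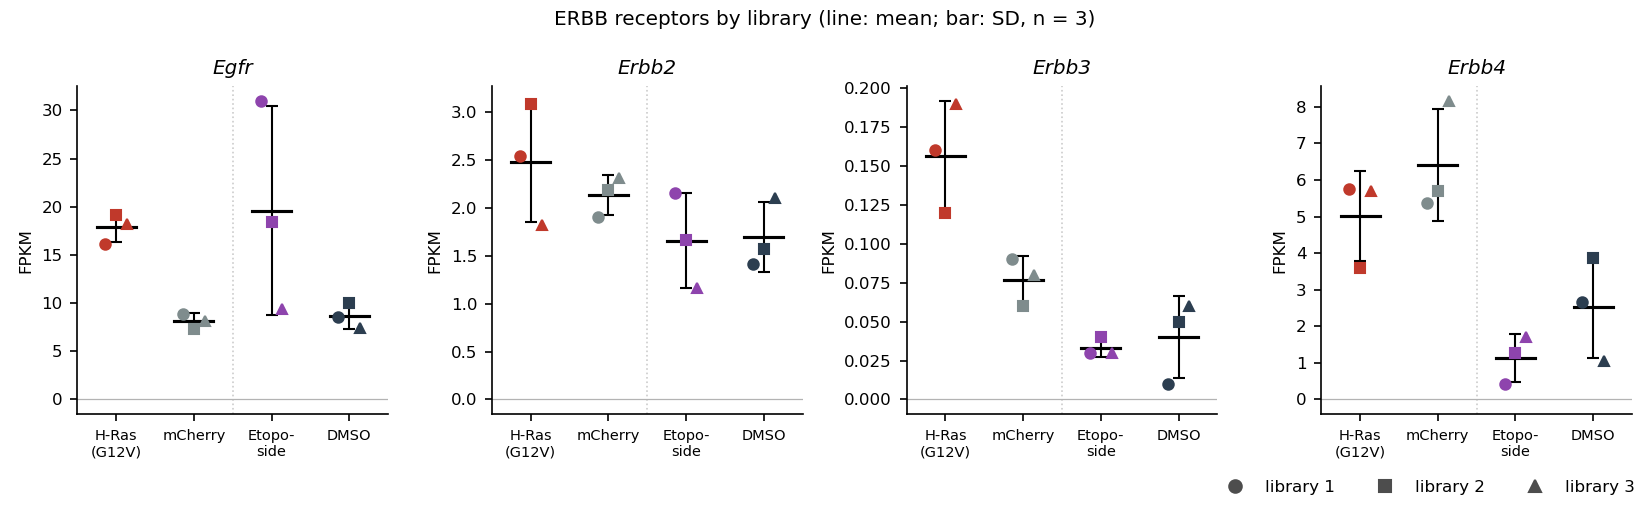
FPKM of the 4 receptors in each library of the 4 groups, with a line at the group mean and bars of 1 SD (n = 3), each panel on its own linear axis. Egfr was higher in all 3 H-Ras(G12V) libraries than in any mCherry library, and Erbb3 did not exceed 0.19 FPKM in any library.

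Of the 7 members tested, 3 rose and 0 fell with H-Ras(G12V), where 17% of 12724 genes passed, 10.3% higher and 6.67% lower. Areg is among the 3 and entered the test only through its level in the H-Ras(G12V) libraries. The count is thus a description and is not set against these shares. Of all genes called, 60.7% were higher on FPKM as deposited, 39.1% after scaling to a common sum and 49.1% with median-of-ratios scaling, with a median log2 difference over all genes of 0.05, -0.07 and -0.01. Areg, Hbegf and Egfr were called as higher under each of these scalings. Of all 10 members, 6 were higher with no overlap between the groups (Areg, Ereg, Hbegf, Btc, Egfr and Erbb3), and none was lower. Among the genes tested, 23.7% were higher and 16.6% lower with no overlap. Ereg, Btc and Erbb3 were under the filter and are not among the genes tested, so the count is not set against these shares. Areg, Hbegf and Egfr passed when each library in turn was left out. None of the 3 passed in a single fit that took its spread from all 12 libraries, with limma adjusted p of 0.0728 for Areg, 0.287 for Hbegf and 0.0929 for Egfr at the same log2 fold changes.

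In etoposide-treated neurons the ligands split the libraries. In etoposide libraries 1 and 2, Areg, Btc and Hbegf stood far above every DMSO library, Nrg1 and Egfr were higher as well, and Tgfa was lower. In etoposide library 3, Areg, Ereg, Btc and Hbegf lay at the DMSO level. With all 3 libraries no member passed the test, and 0.453% of 12371 genes did, all of them lower.

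Hbegf was at 231.64, 131.27 and 13.13 FPKM in etoposide libraries 1, 2 and 3, against 15.13, 13.08 and 16.82 FPKM in DMSO libraries. Libraries 1 and 2 were at 15.4 and 8.75 times the DMSO mean, and library 3 was at 0.875 times. The level of 231.64 FPKM was the highest of any of the 10 genes in the series. The log2 fold change over all libraries was 2.25 (95% confidence interval 0.32 to 4.18, unadjusted p = 0.0271, limma adjusted p = 0.355).

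Areg was at 23.25, 7.75 and 0.18 FPKM in etoposide libraries, against 0.1, 0.51 and 0.17 FPKM in DMSO libraries. Libraries 1 and 2 stood far above every DMSO library, and library 3 lay inside the DMSO range. No fold is given, since 1 DMSO library was at or under the level of 3 fragments and the DMSO mean rests largely on library 2. Areg entered the test only through etoposide libraries 1 and 2. Over all libraries the log2 fold change was 2.34 (95% confidence interval 0.33 to 4.35, limma adjusted p = 0.355).

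Btc was at 4.48, 3.25 and 0.07 FPKM in etoposide libraries, against 0.15, 0.11 and 0.06 FPKM in DMSO libraries, and it entered the test only through etoposide libraries 1 and 2. Its log2 fold change was 1.40 (95% confidence interval 0.19 to 2.61, limma adjusted p = 0.355). Ereg was at 0.91, 0.45 and 0 FPKM in etoposide libraries, against 0, 0.01 and 0.01 FPKM in DMSO libraries, which were all at or under the level that 3 fragments would give. Epgn, the remaining gene of the chromosome 5 cluster and not among the 10 members, was at 0.31, 0.59 and 0.02 FPKM in etoposide libraries and 0.07, 0.05 and 0.07 FPKM in DMSO libraries. In H-Ras(G12V) libraries Epgn was at 0.04, 0 and 0.05 FPKM, below the 0.13, 0.17 and 0.13 FPKM of the mCherry libraries, where Ereg, Areg and Btc were higher. All Epgn values were low, with 3 of 3 H-Ras(G12V) and 3 of 3 DMSO libraries at or under the level of 3 fragments.

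Nrg1 was at 13.01, 7.79 and 3.18 FPKM in etoposide libraries, against 3.02, 3.04 and 2.01 FPKM in DMSO libraries. Its groups did not overlap, although library 3 lay close above the highest DMSO library. The log2 fold change was 1.13 (95% confidence interval 0.16 to 2.10, limma adjusted p = 0.355). Tgfa was at 8.93, 5.08 and 5.84 FPKM in etoposide libraries, below the 12.33, 10.6 and 10.56 FPKM of the DMSO libraries, with library 3 at 0.523 times the DMSO mean. Its log2 fold change of -0.70 did not pass (95% confidence interval -1.36 to -0.05, limma adjusted p = 0.356). Tgfa was the one ligand whose etoposide library 3 lay away from the DMSO libraries in the same direction as libraries 1 and 2 and by a like amount.

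Egfr was at 30.99, 18.41 and 9.44 FPKM in etoposide libraries, against 8.59, 10 and 7.38 FPKM in DMSO libraries. Libraries 1 and 2 were at 3.58 and 2.13 times the DMSO mean, and library 3 at 1.09 times (log2 fold change 0.96, limma adjusted p = 0.357). Of 8 astrocyte markers, 1 had a positive log2 fold change with etoposide. The median over the list was -0.99, and none of the 8 passed. They summed to 946.1 and 609.3 FPKM in etoposide libraries 1 and 2, under the 1016 to 1583 FPKM of the DMSO libraries. The exception was Gja1, at 378.26, 286.52 and 60.83 FPKM in etoposide libraries and 76.82, 59.03 and 59.82 FPKM in DMSO libraries. It was high in the same libraries as Egfr. Nes, a marker of progenitors that reactive glia also express, was at 59.32, 45.37 and 15.22 FPKM in etoposide libraries and 20.46, 22.59 and 15.33 FPKM in DMSO libraries, in the same library order as Egfr among the etoposide libraries. The part of glia or progenitors in the Egfr values was not tested.

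Erbb4 was at 0.41, 1.27 and 1.7 FPKM in etoposide libraries and 2.67, 3.87 and 1.06 FPKM in DMSO libraries. The groups overlapped through DMSO library 3, and the log2 fold change of -0.70 did not pass (95% confidence interval -1.57 to 0.17, limma adjusted p = 0.400). Inhibitory neuron markers did not move together. Gad2 was at 4.4, 17.4 and 21.23 FPKM in etoposide libraries and 21.52, 22.85 and 5.21 FPKM in DMSO libraries. Like Erbb4, it was lowest in etoposide library 1 and DMSO library 3. Etoposide library 3 was near DMSO libraries 1 and 2 for Gad2 and below them for Erbb4. Sst was at 227.04, 355.95 and 144.77 FPKM in etoposide libraries and 139.15, 136.15 and 145.34 FPKM in DMSO libraries. The part of inhibitory neurons in the Erbb4 values was not tested. Erbb2 was at 2.15, 1.66 and 1.16 FPKM in etoposide libraries and 1.41, 1.57 and 2.1 FPKM in DMSO libraries (log2 fold change -0.03, limma adjusted p = 0.964). Erbb3 was at 0.03, 0.04 and 0.03 FPKM in etoposide libraries and 0.01, 0.05 and 0.06 FPKM in DMSO libraries, where Sox10 was at 25.09, 18.81 and 25.35 FPKM.

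At an unadjusted p under 0.05, 6 of the 8 tested members differed with etoposide, 5 higher and 1 lower. Of all tested genes, 13.9% differed. Areg and Btc are among the 5 and entered the test only through their levels in etoposide libraries. The count is thus a description and is not set against this share. Of all 10 members, Nrg1 was higher and Tgfa lower with no overlap between the groups, and 8 overlapped. Among the genes tested, 7.64% were higher and 8.17% lower with no overlap. Ereg and Erbb3 were under the filter and are not among the genes tested.

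**Figure D3:**
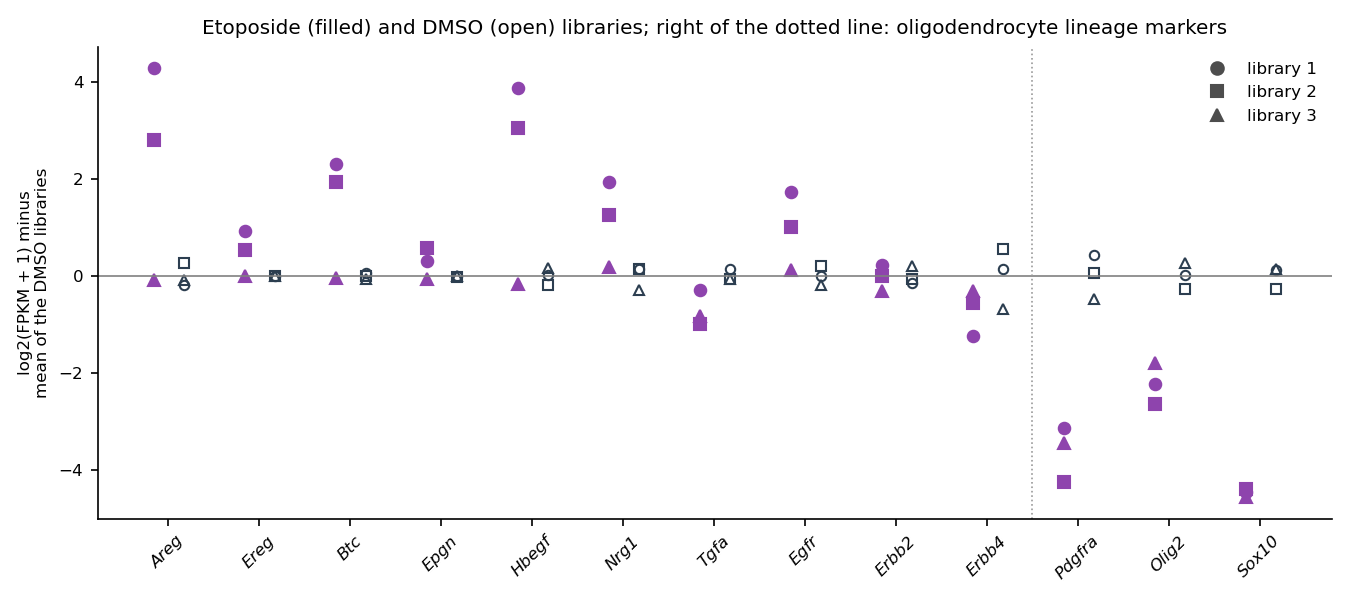
Difference of each etoposide library (filled) and DMSO library (open) from the mean of the DMSO libraries on the log2(FPKM + 1) scale, for the members, Epgn and 3 oligodendrocyte lineage markers; Erbb3, at or under 0.06 FPKM in these libraries, is not drawn. Etoposide library 3 lay at the DMSO level for Areg, Ereg, Btc and Hbegf, but with the other etoposide libraries for Tgfa, Pdgfra, Olig2 and Sox10.

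Without etoposide library 3 the result was different. Then 5 of the 8 tested members rose and 0 fell, where 31.8% of 12403 genes passed, 18.4% higher and 13.4% lower. Areg and Btc are among the 5 and entered the test only through their levels in etoposide libraries 1 and 2, so the count is a description and is not set against these shares. This fit leaves out the etoposide library where Areg, Btc and Hbegf lay at the DMSO level. The etoposide spread then rests on libraries 1 and 2 alone, at 23.25 and 7.75 FPKM for Areg. In it, Areg rose by 3.55 (limma adjusted p = 0.000379), Hbegf by 3.46 (adjusted p = 9.57e-05) and Btc by 2.13 (adjusted p = 0.000345) on the log2 scale. Nrg1 rose by 1.60 (limma adjusted p = 0.00414) and Egfr by 1.38 (adjusted p = 0.00738). Tgfa had a log2 fold change of -0.64 (limma adjusted p = 0.112), Erbb4 of -0.89 (0.0921) and Erbb2 of 0.11 (0.758). Left out singly, none of the other 5 libraries brought a member past the threshold.

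Etoposide library 3 was not at the DMSO level throughout. Pdgfra, a marker of oligodendrocyte precursors, was at 4.68, 1.64 and 3.59 FPKM in etoposide libraries 1, 2 and 3, against 66.71, 51.14 and 35.03 FPKM in DMSO libraries (log2 fold change -3.62, limma adjusted p = 0.00437). Sox10 was at 0.09, 0.14 and 0.01 FPKM in etoposide libraries, and Olig2, another factor of that lineage, at 22.77, 16.89 and 31.4 FPKM, against 111.71, 91.47 and 132.93 FPKM in DMSO libraries. Sox10 fell by 4.47 on the log2 scale (limma adjusted p = 0.000497) and Olig2 by 2.22 (adjusted p = 0.0163). Sox10 passed without each library in turn. Pdgfra did not pass without etoposide library 2 or DMSO library 3 (adjusted p = 0.0506 and 0.0603), nor Olig2 without etoposide library 2 or DMSO library 1 or 3 (0.146, 0.0847 and 0.169).

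**Figure D4:**
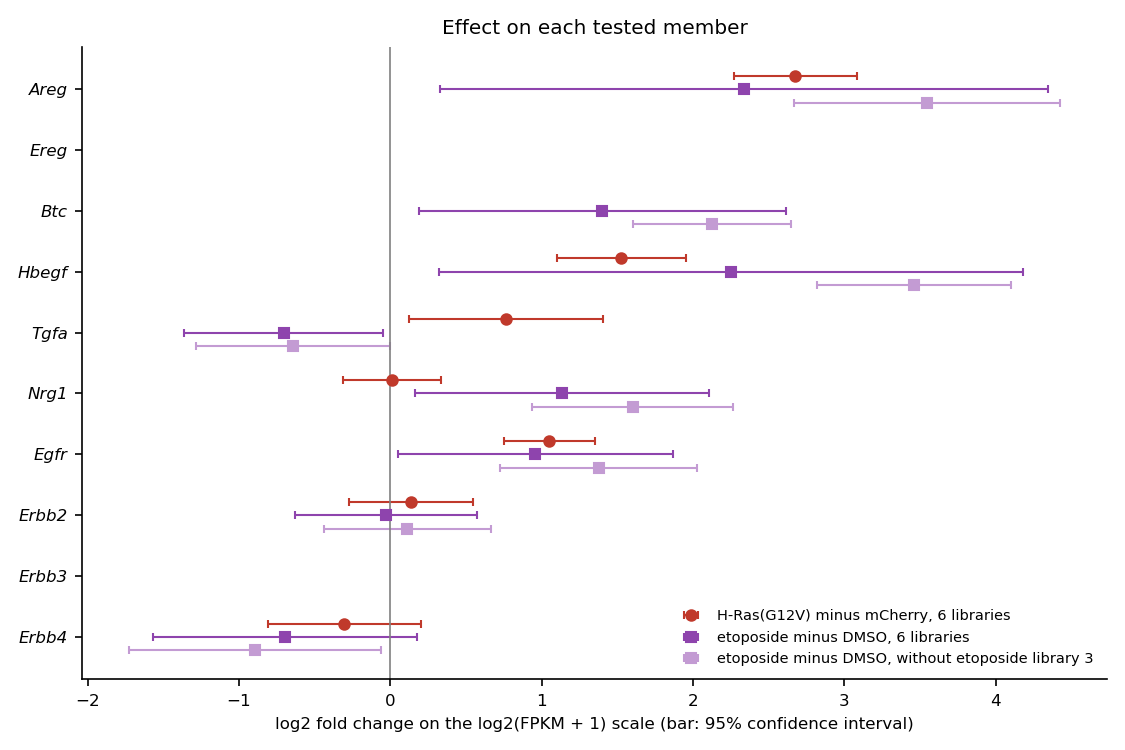
Log2 fold change of each tested member with its 95% confidence interval, on the log2(FPKM + 1) scale, for H-Ras(G12V) minus mCherry, etoposide minus DMSO, and etoposide minus DMSO without etoposide library 3. Intervals of the 6-library etoposide fit were widest for Areg and Hbegf, and Ereg and Erbb3 have no point because they were under the filter on low values, as was Btc in the H-Ras(G12V) comparison.

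The difference of the 2 effects, H-Ras(G12V) minus etoposide, was tested in a fit over all 12 libraries. None of the 7 tested members passed, and 3.76% of 12646 genes did. At an unadjusted p under 0.05, Tgfa and Nrg1 differed, as did 18.3% of all tested genes. For Tgfa the difference was 1.47 (95% confidence interval 0.62 to 2.32, limma adjusted p = 0.0625), with every H-Ras(G12V) library above the mCherry mean and every etoposide library below the DMSO mean. For Nrg1 it was -1.12 (limma adjusted p = 0.247), for Hbegf -0.72 (0.737), for Areg 0.34 (0.895) and for Egfr 0.09 (0.937). Erbb2 had a difference of 0.17 (limma adjusted p = 0.792) and Erbb4 of 0.39 (0.683).

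Without etoposide library 3, 4 of 8 members passed the test of the difference, where 22.6% of genes did. Btc is among the 4 and entered this test only through etoposide libraries 1 and 2, so the count is a description. Hbegf (-1.93, limma adjusted p = 0.00289), Btc (-1.31, 0.00351) and Nrg1 (-1.59, 0.00447) had the larger increase with etoposide, and Tgfa (1.41, 0.0291) had opposite signs in the 2 models. Areg (-0.87, adjusted p = 0.198) and Egfr (-0.33, 0.458) did not pass. Tgfa also passed without mCherry library 3 (1.76, limma adjusted p = 0.00926) and without etoposide library 1 (1.67, 0.0310).

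The genes that act around the ligands and receptors were taken as 4 lists. Of 5 other ligand genes (Egf, Epgn, Nrg2, Nrg3 and Nrg4), 2 were tested with H-Ras(G12V), and 1 fell, where 6.67% of all tested genes fell. Nrg3, a neuregulin that binds ERBB4, was at 5.86, 4.49 and 4.65 FPKM in H-Ras(G12V) libraries, against 8.39, 9.47 and 10.91 FPKM in mCherry libraries. The groups did not overlap (log2 fold change -0.82, limma adjusted p = 0.0159). It no longer passed when H-Ras(G12V) library 2 or 3 or mCherry library 2 was left out (adjusted p = 0.0521, 0.0690 and 0.0627).

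Of 10 genes of ligand shedding (the ADAM proteases, Bace1, Nrd1, the iRhom genes Rhbdf1 and Rhbdf2, and Frmd8), 9 were tested with H-Ras(G12V), 2 rose and 0 fell, with a median log2 fold change of 0.53 against 0.05 over all genes, of which 10.3% rose and 6.67% fell. Adam12, a protease that can shed HB-EGF, was at 16.78, 16.69 and 25.16 FPKM in H-Ras(G12V) libraries, against 7.4, 5.97 and 11.25 FPKM in mCherry libraries (log2 fold change 1.17, limma adjusted p = 0.0240). Adam9, another ADAM protease, was at 54.42, 48.14 and 60.05 FPKM in H-Ras(G12V) libraries, against 28.95, 27.82 and 40.98 FPKM in mCherry libraries (0.73, adjusted p = 0.0336). Neither gene's groups overlapped. Both calls were lost when any single library other than mCherry library 3 was left out, with limma adjusted p of 0.0638 to 0.0868 for Adam12 and 0.0647 to 0.125 for Adam9. After scaling to a common sum, only 1 of the 9 tested shedding genes rose.

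Of 12 receptor inhibitors and turnover genes, 10 were tested with H-Ras(G12V), 1 rose and 0 fell, near the share of all genes (10.3% rose and 6.67% fell), with a median log2 fold change of 0.17. Lrig1, a membrane protein that promotes the degradation of ERBB receptors, was at 94.27, 103.06 and 89.61 FPKM in H-Ras(G12V) libraries, against 35.16, 30.19 and 63.2 FPKM in mCherry libraries. The groups did not overlap (log2 fold change 1.21, limma adjusted p = 0.0248). The call was lost when any single library other than mCherry library 3 was left out (adjusted p = 0.0714 to 0.0879).

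Of 21 adaptors and effectors, 20 were tested with H-Ras(G12V), 1 rose and 1 fell, no more than the share of all genes (10.3% rose and 6.67% fell), with a median log2 fold change of -0.11. Gab1, a docking protein downstream of EGFR, was at 23.1, 20.44 and 22.8 FPKM in H-Ras(G12V) libraries, against 8.79, 9.25 and 12.38 FPKM in mCherry libraries. The groups did not overlap, and Gab1 passed (log2 fold change 1.07, limma adjusted p = 0.00754) also without each library in turn. Shc2, a neuronal adaptor of the Shc family, was at 8.76, 9.29 and 7.48 FPKM in H-Ras(G12V) libraries, against 13.12, 12.87 and 11.03 FPKM in mCherry libraries (-0.49, adjusted p = 0.0473). Its call was lost when any single library other than mCherry library 3 was left out (adjusted p = 0.0636 to 0.173). Without mCherry library 3, 5 of 9 shedding genes rose, 2 of 11 inhibitors and turnover genes rose and 2 fell, and 4 of 20 adaptors and effectors rose and 4 fell, where 25.4% of all genes rose and 19.5% fell.

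With etoposide, no gene of these 4 lists passed over all 6 libraries, with limma. At an unadjusted p under 0.05, 0 of 2 other ligands, 1 of 10 shedding genes, 2 of 11 inhibitors and turnover genes and 3 of 20 adaptors and effectors differed. Their median log2 fold changes were -0.08, 0.35, 0.47 and 0.13 in that order, against 0.09 over all genes. Without etoposide library 3, 3 shedding genes rose and 1 fell, 3 inhibitors and turnover genes rose, and 5 adaptors and effectors rose and 2 fell, where 18.4% of all genes rose and 13.4% fell.

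Rhbdf2 encodes an iRhom protein that brings ADAM17 to the cell surface. It was at 4.83, 2.03 and 0.3 FPKM in etoposide libraries, against 0.22, 0.25 and 0.16 FPKM in DMSO libraries, and rose by 1.80 without etoposide library 3 (limma adjusted p = 0.00222). Adam17, the main protease for amphiregulin, was at 31.18, 20.88 and 8.99 FPKM in etoposide libraries, against 11.73, 10.88 and 6.5 FPKM in DMSO libraries, and rose by 1.35 without library 3 (adjusted p = 0.0111). Both genes were high in etoposide libraries 1 and 2 and near the DMSO level in library 3. Frmd8, which encodes a partner of the iRhom proteins, rose by 1.05 (limma adjusted p = 0.0167), and Adam12 fell by 1.04 (adjusted p = 0.0385), both without library 3.

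Among the inhibitors, Errfi1 (MIG6), which binds and blocks the EGFR kinase, was at 49.95, 43.49 and 28.32 FPKM in etoposide libraries, against 14.65, 29.49 and 14.57 FPKM in DMSO libraries. It rose by 1.29 without etoposide library 3 (limma adjusted p = 0.0155), as did the deubiquitinase gene Usp8 by 1.14 (0.0269) and Lrig3 by 0.91 (0.0334). Among the effectors, Pik3r3, a regulatory subunit of PI3-kinase, was at 3.71, 3.87 and 28.82 FPKM in etoposide libraries, against 34.56, 41 and 16.91 FPKM in DMSO libraries. Etoposide library 3 lay within the DMSO range for Pik3r3. Without it Pik3r3 fell by 2.64 (limma adjusted p = 0.000947) and Shc3, a neuronal Shc adaptor, by 1.58 (adjusted p = 0.00354). In that fit 3 of 8 pan-neuronal markers fell. Their sum was lower in etoposide libraries 1 and 2, but Snap25, Syt1 and Syp lay within the DMSO range in library 2. The part of neurons in the Pik3r3 and Shc3 values was not tested. Without etoposide library 3, Sos2, an exchange factor that activates RAS, rose by 1.43 (limma adjusted p = 0.0134), and the adaptors Nck1, Crkl and Gab2 also rose.

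**Figure D5:**
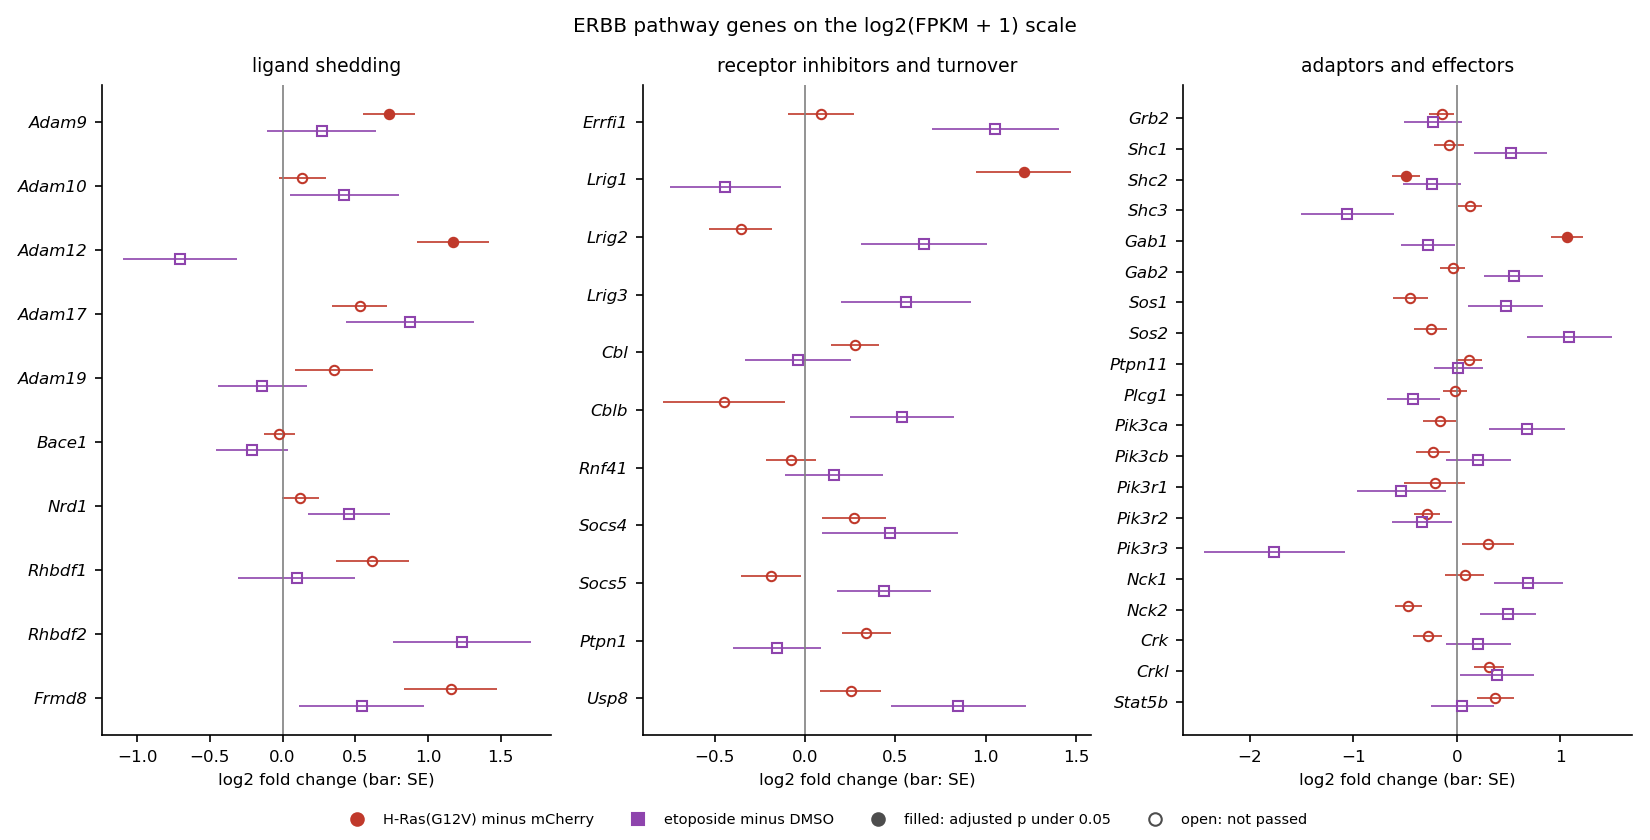
Log2 fold change with its standard error of each tested gene of 3 lists around the receptors, on the log2(FPKM + 1) scale, for H-Ras(G12V) minus mCherry (circles) and etoposide minus DMSO (squares), each over 6 libraries. Filled points mark the 5 genes that passed with H-Ras(G12V), Adam9, Adam12, Lrig1, Gab1 and Shc2, and no etoposide point is filled.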

How the data were processed

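mRNA of 12 libraries of primary mouse neurons was enriched on oligo-dT beads, as the labels' protocols state. The authors deposited FPKM values per gene and library, in 1 table per model, per the file headers. RSEM, Bowtie2, HISAT and the build mm9 are named in the submitters' processing notes, with no role or version. Further filters or scaling are not given in the sources used here. FPKM sums differ between libraries. Whole reads could not be recovered: 49.0% to 62.8% of low values lay within 0.15 of a whole fragment, where an even spread gives 30%. The depths and 3-fragment levels are therefore rough, cover counting error only and rest on GENCODE M21 transcript lengths.

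Values were analysed as log2(FPKM + 1) in R 4.3.3 by limma 3.58.1, with lmFit and a trended eBayes, where a gene averaged 1 FPKM or more across the fitted libraries. Each model was fitted on its own 6 libraries and the difference on all 12. P-values were two-sided and adjusted by Benjamini-Hochberg over all genes tested, with a threshold of 0.05. With 3 libraries against 3, an exact permutation test could not go below 0.1 and was not used. The fit was tested on simulated data. Alternatives changed the pseudocount, the filter, the scaling, the variance model, the libraries fitted and a replicate block.

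The members, gene lists and tests were chosen with earlier results of these data known. Named were all members, up to 6 called genes per list and model, by smallest adjusted p, without etoposide library 3 for that model, and genes from the first 3 of a marker list, of which some are not reported. Hras, Gja1, Sst, Snap25, Syt1, Syp, Nefl and the other ligands that were not called were chosen after their values were seen. Promoter sequences are from RefSeq, build GRCm38.p6. Hbegf, Nrg1, Ereg and Erbb3 sequences are not used here.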

Additional observations from a re-analysis of the deposited data

Results flagged for a closer look

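Tgfa differed in sign between the 2 models. It was at 16.52, 11.57 and 15.68 FPKM in the H-Ras(G12V) libraries, each above the mCherry mean of 8.51 FPKM, and at 8.93, 5.08 and 5.84 FPKM in the etoposide libraries, each below the DMSO mean of 11.2 FPKM. The log2 fold change with H-Ras(G12V) less that with etoposide was 1.47 on the log2(FPKM + 1) scale. The test of this difference gave a limma adjusted p of 0.0625, and between 0.00926 and 0.179 over 20 alternatives, of which 3 passed. The mCherry library 3, at 12.6 FPKM, lay within the H-Ras(G12V) range. The cause was not tested.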

How the results depend on the processing

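With H-Ras(G12V), 2161 genes and 3 members passed. The gene count was 639 with mCherry libraries 1 and 2 averaged, 496 in a single fit of 12 libraries, and between 496 and 5716 when 1 library was left out, the highest without mCherry library 3. The count of members was 5 with no filter, since Ereg and Btc were then tested, 0 in the single fit and 3 to 4 with 1 library left out. Areg, Hbegf and Egfr passed in every alternative run but the single fit, except that Areg was not tested with a filter at a mean of 5 FPKM. With etoposide, 56 genes and 0 members passed. The gene count was 22 with a filter at a mean of 5 FPKM, 194 in the single fit, and between 4 and 3938 with 1 library left out, the lowest without DMSO library 3 and the highest without etoposide library 3. The count of members was 0 to 5 with 1 library left out. For the difference of the effects, 475 genes and 0 members passed. The gene count was 256 with the filter at 5 FPKM and 277 to 2868 with 1 library left out, and the count of members was 0 to 4.

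Signs turned for values that had not passed. Nrg1 with H-Ras(G12V) was at -0.10 after scaling to a common sum, at -0.042 with median-of-ratios scaling, and at -0.053 to 0.092 with 1 library left out. With 1 library left out, Erbb2 with etoposide ran from -0.16 to 0.11, and the difference of the effects ran from -0.87 to 1.31 for Areg, -1.93 to 0.087 for Hbegf and -0.33 to 0.48 for Egfr. The cause was not tested.

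Replicate numbers are shared between groups, and no label says whether they pair the libraries. Deviations of same-numbered libraries correlated at -0.04, 0.03 and 0.12 in the oncogene model and at -0.26, -0.17 and -0.15 in the etoposide model. With 3 libraries per group these values cannot settle whether libraries are paired. With a replicate block, 1681 genes and 3 members passed with H-Ras(G12V), 12 genes and 0 members with etoposide, and 345 genes and 0 members for the difference. Low depth limits Ereg, Erbb3 and Epgn, and Areg and Btc in control libraries, with levels near those of a few fragments.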

Other observations

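Of the other EGF family ligands, Egf, Nrg2 and Nrg4 were at low levels, and Nrg3 was higher. Egf was at 0.48, 0.35 and 0.55 FPKM in H-Ras(G12V) libraries and 0.38, 0.54 and 0.47 FPKM in mCherry libraries, and at 0.62, 0.81 and 0.18 FPKM in etoposide libraries and 0.25, 0.16 and 0.12 FPKM in DMSO libraries. Nrg2, a neuregulin, was at 1.58, 1.7 and 1.39 FPKM in H-Ras(G12V) and 1.59, 1.85 and 1.65 FPKM in mCherry libraries, and at 0.92, 1.19 and 0.97 FPKM in etoposide and 1.25, 0.79 and 1.07 FPKM in DMSO libraries. Nrg4, which binds ERBB4, was at 0.49, 0.63 and 0.86 FPKM in H-Ras(G12V) and 1.15, 1.03 and 0.74 FPKM in mCherry libraries, and at 0.4, 0.58 and 0.35 FPKM in etoposide and 0.58, 0.35 and 0.21 FPKM in DMSO libraries. The groups overlapped in both models for Egf, Nrg2 and Nrg4, and Egf was above every DMSO library in etoposide libraries 1 and 2. Nrg3 was at 4.19, 11.5 and 9.05 FPKM in etoposide libraries and 10.32, 10.04 and 6.17 FPKM in DMSO libraries, and did not pass.

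Summed over the 6 ligands, the mRNA level was 59.88 to 78.72 FPKM in H-Ras(G12V) and 22.48 to 31.5 FPKM in mCherry libraries. It was 282.2, 155.6 and 22.4 FPKM in etoposide libraries 1, 2 and 3 and 27.35 to 30.73 FPKM in DMSO libraries. Summed over the 4 receptors it was 24.62 to 25.96 FPKM in H-Ras(G12V), 15.21 to 18.74 FPKM in mCherry, 12.33 to 33.58 FPKM in etoposide and 10.6 to 15.49 FPKM in DMSO libraries. Most of each sum came from Hbegf and Tgfa for the ligands and from Egfr and Erbb4 for the receptors in the mCherry libraries.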
